A study of Mus musculus with 8 samples.

Results

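Calmodulin genes and genes of proteins that bind calmodulin were described in R1 mouse embryonic stem cells whose calcineurin variant CnAβ1 had been targeted by siRNA. The 7 genes were Calm2, Calm3, Calml4, Pcp4, Camk2d, Camk2g and Camkk2, taken by name from the probes whose accession matched one of these symbols. They had 12 probes in all, among 22436 genes tested. The list was selected on earlier results of these arrays, in which the log2 differences between siRNA and Control were already known. Differences from Control are therefore given as a description, and no p-value of a single gene is offered as support.

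R1 is a pluripotent mouse line that forms embryoid bodies in suspension. Cells had received siRNA 1 or siRNA 2, both against CnAβ1, or a Control siRNA, and all were differentiated in embryoid bodies for 48 h and measured 48 h after transfection. Total RNA was read on 1-colour (Cy3) Agilent arrays, with 3 arrays of siRNA 1, 2 of siRNA 2 and 3 of Control. All groups share the 1 cell line. Whether replicates came from different cultures is not given, and the p-values and spread below may thus be technical.

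Between 68.0% and 75.1% of spots on each array were well above background, and the signal at each array's 75th percentile was 838 to 1031. The 9 pluripotency markers looked at, among them Pou5f1 and Nanog, were well above background on all 8 arrays. The arrays lay on 3 slides. The arrays of siRNA 1 all took position 2, those of siRNA 2 position 3 and those of Control position 1, so that group and position on the slide cannot be told apart. Slide 1 held replicate 1 of each group and no other array, so slide 1 and replicate 1 cannot be told apart. It was taken for a contrast as the slide that stood apart, so its count of calls is a description. Within groups, its arrays differed from the others at 1332 genes in limma's test. Of these, 151 were higher (0.673% of all genes) and 1181 lower (5.26%) on slide 1. The lower share of these calls was 88.7%, against 73.5% under quantile normalization, 75.9% under median scaling, 72.3% with no background correction, 58.5% under normexp followed by quantile normalization and 78.5% with array weights.

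Calmodulin is a small protein that binds calcium through EF-hand loops and then wraps around helices of its partner proteins. The separate genes Calm2 and Calm3 encode the same calmodulin protein. Calcineurin is one such partner: its catalytic A subunit is switched on when calcium-loaded calmodulin binds it, and it then dephosphorylates NFAT transcription factors. CnAβ1 is a splice variant of the Aβ subunit gene Ppp3cb with a C-terminus of its own in place of the autoinhibitory domain. The calmodulin-dependent kinases, to which Camk2d, Camk2g and Camkk2 belong, are partners of the same sensor, and Pcp4 is a small protein that binds calmodulin through an IQ motif and alters how fast it takes up and releases calcium.

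Promoters are shown for the 2 genes that differed most from Control, Calml4 and Pcp4, and beside them for Camk2d, which was lower, and Calm3, which was close to Control. They come from RefSeq annotation (GRCm38.p6). The promoter set used here held those of 5 of the 7 genes, namely Calm3, Calml4, Pcp4, Camk2d and Camkk2. Each runs 5′ to 3′ on the gene's strand from 250 bases before the annotated start to 50 after it, at chr9:62857854-62858153 on the plus strand for Calml4, chr16:96467356-96467655 on the plus strand for Pcp4, chr3:126596701-126597000 on the plus strand for Camk2d and chr7:16923983-16924282 on the minus strand for Calm3. Capitals mark GGAAA or its reverse complement TTTCC, the core that NFAT factors recognise.
Calml4: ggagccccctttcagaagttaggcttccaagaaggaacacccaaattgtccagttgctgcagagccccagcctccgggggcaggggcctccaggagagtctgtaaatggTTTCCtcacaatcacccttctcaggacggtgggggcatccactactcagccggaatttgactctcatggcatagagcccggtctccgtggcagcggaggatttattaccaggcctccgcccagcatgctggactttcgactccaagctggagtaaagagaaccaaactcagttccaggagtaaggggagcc
Pcp4: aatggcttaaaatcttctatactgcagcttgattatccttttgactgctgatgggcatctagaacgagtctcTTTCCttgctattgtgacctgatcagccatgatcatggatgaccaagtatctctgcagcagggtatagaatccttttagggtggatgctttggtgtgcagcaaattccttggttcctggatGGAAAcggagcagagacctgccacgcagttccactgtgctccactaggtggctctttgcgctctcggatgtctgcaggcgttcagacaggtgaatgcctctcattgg
Camk2d: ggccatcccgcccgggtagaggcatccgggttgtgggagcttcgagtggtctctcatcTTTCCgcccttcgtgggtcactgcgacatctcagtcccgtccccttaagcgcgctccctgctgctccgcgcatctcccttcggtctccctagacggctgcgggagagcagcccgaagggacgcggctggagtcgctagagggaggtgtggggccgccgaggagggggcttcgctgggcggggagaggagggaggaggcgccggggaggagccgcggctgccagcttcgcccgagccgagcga
Calm3: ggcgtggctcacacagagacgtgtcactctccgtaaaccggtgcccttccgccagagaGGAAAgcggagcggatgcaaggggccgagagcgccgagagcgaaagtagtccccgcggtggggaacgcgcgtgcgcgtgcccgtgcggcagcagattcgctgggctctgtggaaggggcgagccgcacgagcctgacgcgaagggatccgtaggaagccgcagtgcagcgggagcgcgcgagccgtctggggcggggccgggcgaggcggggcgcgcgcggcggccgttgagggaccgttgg
The Calml4 window held the core once, with its first base at position -141, where 1 is the start site. In the Pcp4 window it stood at -178 and at -57, and in the Camk2d and Calm3 windows at -192 in each. It was absent from the Camkk2 window. Of 32851 promoters of this length in the table, 61.3% held GGAAA or TTTCC. The GC box GGGCGG, searched on both strands, was found in 35.7% of promoters and in those of Calm3, Calml4, Camk2d and Camkk2. TATAAA (13.6% of promoters) was in none of the 5, and the CRE core TGACG (20.8%) was in that of Calm3. None of these 4 motifs contains another, and a match describes the letters of the window only.

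The calmodulin genes themselves were close to Control. Calm2 was read by 2 probes of the same transcript and Calm3 by 2 of its own. Values are log2 processed signal relative to the 75th percentile of the same array, a scale on which 1 unit is a 2-fold difference and levels of different probes are not comparable. The brighter Calm2 probe (A_55_P2129234) read 5.73, 5.73 and 5.80 in siRNA 1, 5.73 and 5.77 in siRNA 2, and 5.85, 5.56 and 5.68 in Control. All siRNA arrays fell inside the range of the Control arrays. The log2 difference of the mean of both siRNAs from Control was 0.06 ± 0.09 (SE, n = 5 and 3), with a 95% interval from -0.15 to 0.26, and it turned to -0.01 without Control replicate 2. The other Calm2 probe (A_55_P2129232) differed by 0.07 ± 0.07 (SE).

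Calm3 showed the same closeness. Its brighter probe (A_55_P2021841) read 3.33, 3.43 and 3.52 in siRNA 1, 3.49 and 3.51 in siRNA 2, and 3.37, 3.40 and 3.41 in Control. Both siRNA 2 arrays lay above all Control arrays, while siRNA 1 lay on both sides of them. The difference of the mean of both siRNAs was 0.07 ± 0.07 (SE), with a 95% interval from -0.10 to 0.24. The dimmer Calm3 probe (A_52_P140356) differed by -0.05 ± 0.12 (SE) and read between 0.85 and 1.30 in siRNA 1, at 1.17 and 1.18 in siRNA 2, and between 1.02 and 1.34 in Control.

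Calml4 stood higher in every siRNA array. It encodes a calmodulin-like protein with EF hands that is known as a light chain of the myosin in the adhesion complex between microvilli of gut and kidney epithelia. Its single probe (A_52_P367760) read -1.23, -1.65 and -1.82 in siRNA 1, -1.79 and -1.67 in siRNA 2, and -2.65, -2.61 and -2.62 in Control. The Control arrays lay within a narrow band and the lowest siRNA array was 0.78 above the highest of them. In processed signal that is 260.2 to 366 units in siRNA 1 and 264.9 to 266.1 in siRNA 2, against 138.4 to 167.3 in Control, well above background on all 8 arrays but under the 75th percentile of each.

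The difference of Calml4 from Control was 1.06 ± 0.15 (SE, n = 3 and 3) for siRNA 1, or 2.08-fold, and 0.90 ± 0.17 (SE, n = 2 and 3) for siRNA 2, or 1.86-fold. The mean of both siRNAs differed by 0.98 ± 0.14 (SE). Of the 22436 genes, 38 (0.169%) differed from Control by at least as much in either direction. Against the Control array of the same slide, the 5 siRNA arrays differed by 1.42 and 0.86 on slide 1, 0.78 on slide 2, and 0.98 and 0.95 on slide 3. The highest of these values belongs to siRNA 1 replicate 1, and without that array the mean of both siRNAs was higher by 0.89. Both comparisons use the same Control arrays, so the siRNAs do not count as separate evidence.

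Pcp4 was the other gene that stood higher. It is named for the cerebellar Purkinje cells, where it is abundant. Its probe (A_51_P253984) read -3.05, -2.88 and -2.75 in siRNA 1, -3.07 and -2.87 in siRNA 2, and -3.61, -3.71 and -3.63 in Control. No siRNA array overlapped with Control, and the gap between the groups was 0.53. The signal was low, at 103.8 to 137.2 processed units in siRNA 1 and 109.1 to 116.3 in siRNA 2, against 64.5 to 83.1 in Control.

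The difference of Pcp4 was 0.76 ± 0.11 (SE) for siRNA 1, or 1.69-fold, and 0.68 ± 0.12 (SE) for siRNA 2, or 1.60-fold. The mean of both siRNAs differed by 0.72 ± 0.10 (SE), a size that 138 of all genes (0.615%) reached. Within slides the siRNA arrays were above their Control array by 0.55 and 0.53 on slide 1, by 0.96 on slide 2, and by 0.76 and 0.77 on slide 3. The difference of the mean was 0.46 without background correction, 0.38 under normexp followed by quantile normalization, and 0.73 under quantile normalization alone. Under normexp followed by quantile normalization that of Calml4 was 0.69.

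**Figure D1:**
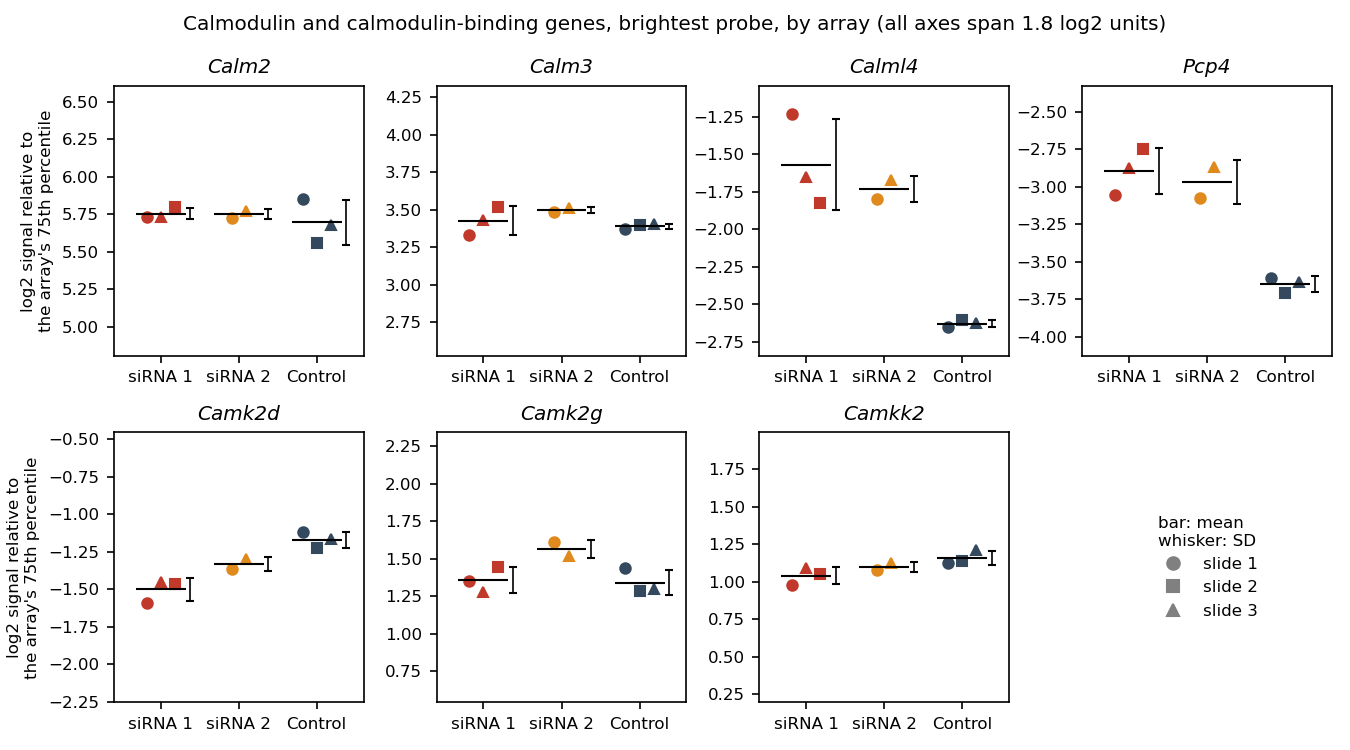
Each panel plots 1 gene by its brightest probe, with a point for each of the 8 arrays in siRNA 1, siRNA 2 and Control on the vertical axis of log2 signal relative to the 75th percentile of the array; horizontal bars are group means, whiskers SDs and symbols slides. Calml4 and Pcp4 show all siRNA points above all Control points, with gaps of 0.78 and 0.53, while Calm2 shows all siRNA points within the Control range.

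Markers of other cell types were set beside these genes. Summed over the 14 measured visceral endoderm markers, the signal in multiples of the 75th percentile was 31.8 to 43.7 in siRNA 1, 31.3 to 32.9 in siRNA 2 and 31.3 to 41.7 in Control, so these ranges overlapped. Of the 15 markers in that list, 13 were well above background on all 8 arrays. Afp was so on all siRNA 1 and Control arrays and on neither siRNA 2 array, and Apoa1 on 3 arrays. The median difference from Control over the list was -0.14 for siRNA 1 and -1.07 for siRNA 2. Of its 14 measured genes, 5 were higher than Control in siRNA 1 and 1 in siRNA 2, beside 58.2% and 49.7% of all genes.

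Neural markers summed to 3.42 to 4.67 in siRNA 1, 3.73 to 4.97 in siRNA 2 and 3.93 to 4.58 in Control, with 8 of 9 well above background on all arrays and Dcx on 6. Fibroblast feeder markers summed to 8.47 to 11.0 in siRNA 1, 9.37 to 10.1 in siRNA 2 and 8.88 to 9.66 in Control, with 8 of 10 detected on all arrays and Fap on the Control arrays only. The pluripotency markers summed to 45.2 to 55.4 in siRNA 1, 41.8 to 46.3 in siRNA 2 and 38.8 to 42.5 in Control. All siRNA 1 sums lay above all Control sums, and siRNA 2 overlapped with Control. In siRNA 1, 9 of the 9 pluripotency markers were higher than Control, with a median difference of 0.42, beside 58.2% of all genes. In siRNA 2 it was 6 of 9, with a median of 0.24, beside 49.7% of all genes. Of the 9 neural markers tested, 7 were higher in siRNA 1 and 5 in siRNA 2. Of the 9 fibroblast feeder markers tested, 2 were higher in siRNA 1 and 3 in siRNA 2, with median differences of -0.08 and -0.13. In that list 2 genes, Col6a1 and Fap, lay below Control on all 5 siRNA arrays, beside 1% of all genes. There 0 lay above it, beside 2.43% of all genes. The part of all these marker lists in the values of Calml4 and Pcp4 was not tested. In RNA of whole embryoid bodies, fewer cells of a type and less RNA per cell cannot be told apart.

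The δ chain of calmodulin kinase II was lower. Camk2d encodes one of the subunits of this kinase, which assembles into large rings and stays active after calcium falls once it has phosphorylated itself. Its brightest probe (A_52_P428745) read -1.59, -1.45 and -1.46 in siRNA 1, -1.36 and -1.30 in siRNA 2, and -1.12, -1.23 and -1.16 in Control. All siRNA arrays lay below all Control arrays, by a gap of 0.07 between the nearest. The difference was -0.33 ± 0.08 (SE) for siRNA 1 and -0.16 ± 0.09 (SE) for siRNA 2, and 2154 of all genes (9.60%) differed from Control by at least as much as its mean over both siRNAs, -0.25 ± 0.07 (SE).

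The other Camk2d probes carry the same transcript accession, so they are repeat readings of 1 gene. Probe A_52_P188261 differed by -0.34 ± 0.11 (SE) and also showed no overlap, reading between -4.06 and -3.89 in siRNA 1, at -3.80 and -3.92 in siRNA 2, and between -3.76 and -3.34 in Control. Probe A_55_P1978830 differed by -0.25 ± 0.14 (SE), but there Control replicate 3, at -2.52, was as low as the siRNA arrays, which lay between -2.56 and -2.32. On slide 3 this probe differed from Control by 0.05 and 0.02, whereas the brightest probe differed by -0.28 and -0.13. Within slide 1 the brightest probe differed by -0.47 and -0.25, and within slide 2 by -0.24.

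Camk2g, the γ chain of the same kinase, was read by 1 probe (A_55_P2020341). Its values were 1.35, 1.28 and 1.45 in siRNA 1, 1.61 and 1.52 in siRNA 2, and 1.44, 1.29 and 1.30 in Control. The siRNA 2 arrays lay above all others, and siRNA 1 overlapped with Control. The difference was 0.02 ± 0.09 (SE) for siRNA 1 and 0.22 ± 0.10 (SE) for siRNA 2, and within slides siRNA 2 was above Control by 0.17 and 0.22.

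Camkk2 encodes an upstream kinase that phosphorylates CaMKI, CaMKIV and the energy sensor AMPK. Its brighter probe (A_55_P2329923) read 0.98, 1.09 and 1.05 in siRNA 1, 1.08 and 1.12 in siRNA 2, and 1.12, 1.14 and 1.21 in Control. The groups did not overlap, but the gap of 0.001 is far smaller than the SD within any group, which lay between 0.03 and 0.06. The difference of the mean of both siRNAs was -0.09 ± 0.07 (SE). The dimmer probe (A_55_P2125684) differed by -0.16 ± 0.08 (SE), with siRNA 2 overlapping with Control.

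**Figure D2:**
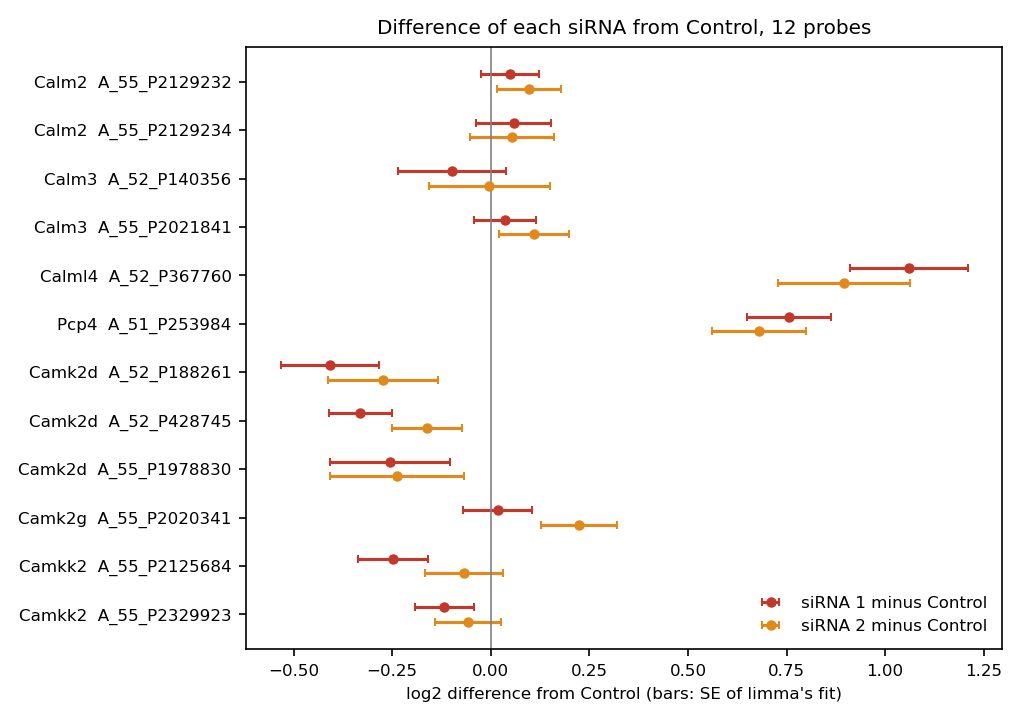
Each row is 1 of the 12 probes, with the log2 difference from Control on the horizontal axis for siRNA 1 and siRNA 2, and bars for the SE of limma's fit. The single probes of Calml4 (1.06 and 0.90) and Pcp4 (0.76 and 0.68) lie far to the right, the 3 Camk2d probes lie left of 0 for both siRNAs, and the Calm2 and Calm3 probes lie near 0.

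Across the whole array, limma called 0 of 22436 genes (0% of those tested) for siRNA 1, for siRNA 2 and for their mean, each against Control, at a Benjamini-Hochberg adjusted p under 0.05, and accordingly 0 of the 7 genes in each. At an unadjusted p under 0.05 there were 784 genes for siRNA 1, 751 for siRNA 2 and 804 for their mean. Each is a smaller share of the 22436 genes than the 0.05 that evenly spread p-values would give. Of the 7 genes, 2 lay higher on all 5 siRNA arrays than on any of the 3 Control arrays, Calml4 and Pcp4, as did 2.43% of all genes, and 2 lay lower, Camk2d and Camkk2, as did 1% of all genes. Taken alone, siRNA 1 lay clear of Control at 4 of the 7 genes, 2 higher and 2 lower, beside 7.9% of all genes (5.4% higher, 2.5% lower). siRNA 2, with 1 array fewer, lay clear of Control at 6 of the 7, with Calm3 and Camk2g also higher, beside 16.9% of all genes (8.74% higher, 8.18% lower). Since the list was chosen with these values known, nothing is read from those shares.

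The siRNAs were also set against each other. The difference of siRNA 2 from siRNA 1 was -0.16 for Calml4 (95% interval -0.56 to 0.23), -0.08 for Pcp4 (-0.36 to 0.20), 0.17 for Camk2d (-0.04 to 0.38) and 0.21 for Camk2g (-0.02 to 0.44). Limma called 0 of all genes (0%) here too, and 0 of the 7. At an unadjusted p under 0.05 there were 754 of 22436 genes, again a smaller share than 0.05. The arrays of siRNA 2 lay above those of siRNA 1 at Camk2d and Camk2g, as they did at 7.25% of all genes, and below them at 0 of the 7, as they did at 11.8% of all genes. Leaving out 1 array moved the value of Calml4 between -0.29 (without siRNA 1 replicate 3) and 0.0034 (without siRNA 1 replicate 1), and that of Pcp4 between -0.18 (without siRNA 2 replicate 2) and 0.026 (without siRNA 2 replicate 1), so that neither has a settled sign. Without the arrays of slide 1 that of Calml4 was 0.065. The intervals do not show that the siRNAs act alike, since they leave room for differences of up to 0.56 in Calml4.

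A contrast on which the choice of genes did not rest is that of slide 1, which held the replicate 1 arrays only, with the other slides. Within groups, limma called 5.94% of all genes between slide 1 and the other slides, and 0 of the 7 genes, whose adjusted p lay between 0.667 and 0.899. The differences of slide 1 from the other slides were 0.14 ± 0.13 (SE) for Calml4 and -0.12 ± 0.09 (SE) for Pcp4. Both genes were chosen with their differences from Control known, so these slide values are not weighed against those differences.

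**Figure D3:**
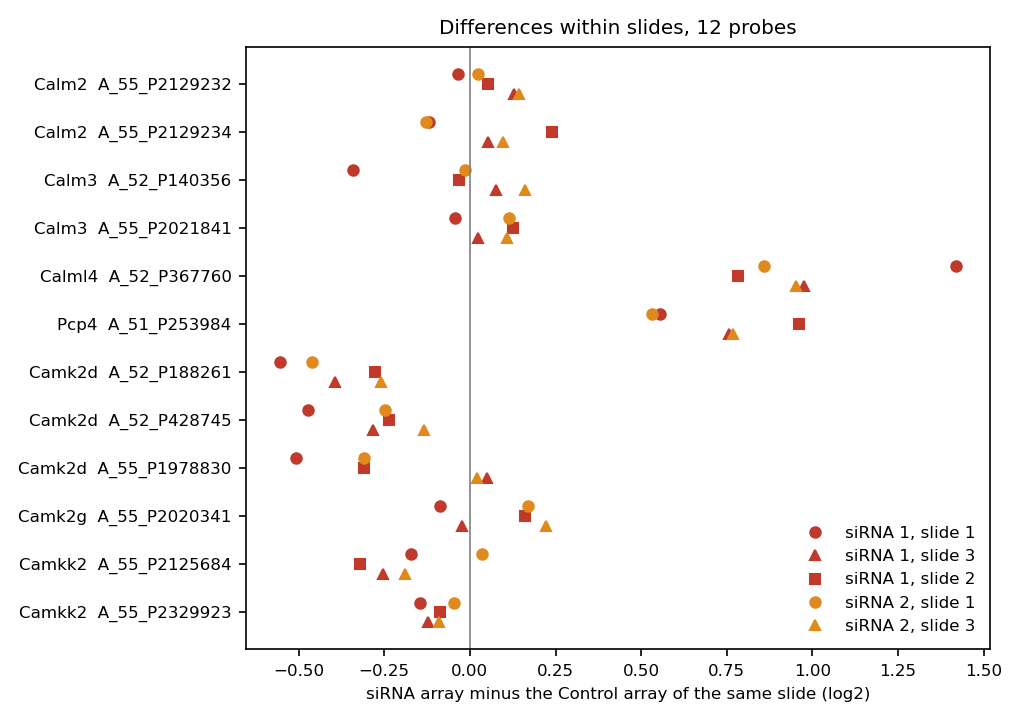
For each of the 12 probes, each point is the log2 difference of 1 siRNA array from the Control array of the same slide, with colour for the siRNA and symbol for the slide. All 5 points of Calml4 (0.78 to 1.42) and of Pcp4 (0.53 to 0.96) lie right of 0, all 5 of the brightest Camk2d probe (-0.47 to -0.13) lie left of it, and those of Calm2 lie on both sides.

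The genes whose course over the 8 arrays was closest to that of Calml4, each centred on its own mean, were Cyp2f2, C1s2 and Kynu, at a root mean square difference of 0.17, 0.18 and 0.20 log2 units, against a median of 0.53 over all genes. Closest to Pcp4 were Patl2, Nlrp4f and Fbp1, at 0.11, 0.11 and 0.12, against a median of 0.40. Calml4 and Pcp4 differed from each other by 0.27, which put Pcp4 at rank 19 for Calml4 and Calml4 at rank 243 for Pcp4. This likeness describes the arrays and was not tested.

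Of 101 further genes of the calcium and calmodulin pathway, 90 were tested, and 0 passed the threshold in either direction. Their median difference was -0.02, with 39 higher and 51 lower, against a median of 0.01 over all genes, of which 52.8% were higher. Of these 90, 3 lay above and 1 below Control on all 5 siRNA arrays, beside 2.43% and 1% of all genes. The 3 were Itpka, Itpr2 and Ryr1 and the 1 was Camkmt, all named after their values were seen.

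By role, and for the mean of both siRNAs, the small IQ-motif proteins beside Pcp4 stood at 0.36 for Gap43, a growth cone protein, -0.03 for Nrgn and -0.05 for Pcp4l1, so that the 4 tested had a median of 0.17. Among 18 calmodulin-dependent kinases, with Camk2d, Camk2g and Camkk2 counted in, 7 were higher and 11 lower, with a median of -0.09. The one farthest from Control was Camk1d, a CaMKI, at 0.39 ± 0.14 (SE). Both inhibitors of calmodulin kinase II were lower, Camk2n2 by a log2 difference of -0.19 ± 0.17 (SE) and Camk2n1 by -0.14.

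For the same mean, the enzymes and pumps under calmodulin control had a median of 0.05 over 18 genes, with the adenylyl cyclase Adcy1 farthest out at 0.24 ± 0.22 (SE). Scaffolds and cytoskeletal partners had a median of -0.04 over 16 genes, with Iqgap1 farthest out at 0.14 ± 0.11 (SE). The subunits of AMPK, a substrate of Camkk2, and its other upstream kinase Stk11 lay between -0.05 and 0.10 for the mean of both siRNAs. By single siRNA the γ subunit gene Prkag3 stood at 0.33 ± 0.30 (SE) for siRNA 1 and at -0.28 ± 0.34 (SE) for siRNA 2. Transcriptional substrates of the kinases had a median of -0.04 over 10 genes, and the coactivator Crtc3 stood at -0.24 ± 0.19 (SE).

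Calcium entry and store genes had, again for the mean, a median of -0.001 over 13 genes (6 higher, 7 lower). Ryr1, a calcium release channel of the endoplasmic reticulum, was farthest out at 0.52 ± 0.12 (SE), reading between -4.09 and -3.74 in siRNA 1, at -3.89 and -3.76 in siRNA 2, and between -4.62 and -4.31 in Control. In calcineurin itself, the target gene Ppp3cb averaged 0.39 ± 0.21 in 3 siRNA 1 arrays, 0.52 ± 0.14 in 2 siRNA 2 arrays and 0.63 ± 0.11 in 3 Control arrays (SD), by a probe that is not known here to read the CnAβ1 variant. Both siRNA groups overlapped with Control at Ppp3cb, and its difference for the mean of both siRNAs was -0.17 ± 0.12 (SE). Ppp3cc, which encodes another subunit, stood at -0.22 ± 0.14 (SE). Of the 4 calcineurin genes tested, 2 were higher and 2 lower. Ppp3ca, the Aα subunit, stood at 0.51 ± 0.17 (SE), with overlap between siRNA and Control arrays.

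**Figure D4:**
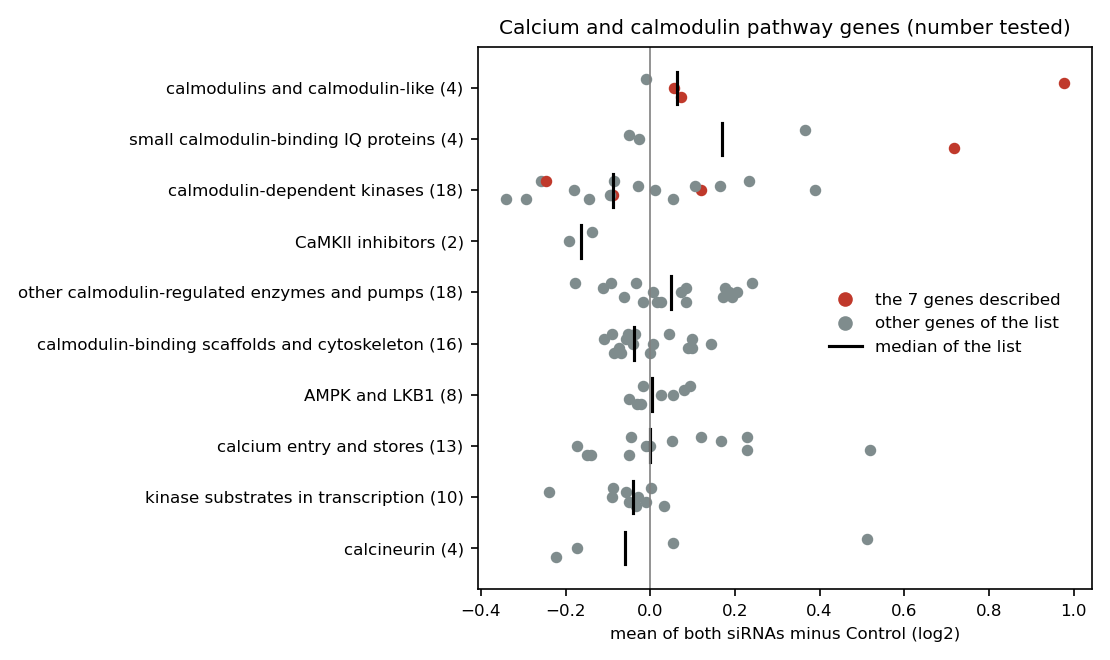
Each point is 1 gene of a calcium or calmodulin pathway list, with the log2 difference of the mean of both siRNAs from Control on the horizontal axis and the list's median as a vertical bar. The points farthest from 0 are Calml4 (0.98) and Pcp4 (0.72), followed by Ryr1 (0.52) and Ppp3ca (0.51), and the kinase list spans -0.34 to 0.39.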

How the data were processed

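The deposited scanner files hold processed, median and background intensities of 1 colour for each of 44397 spots. Per the file headers the extraction software was Agilent's, version 10.7.3.1. The alternatives under normexp and without background correction started from the median signal. For the main values, log2 of the processed signal was taken and log2 of its 75th percentile over non-control spots of the array subtracted. The authors' deposited matrix is on a log2 scale too. Its columns tracked these values, once centred on each probe's median, at r of at least 0.9998, but those named Control 2 and Control 3 tracked each other's array. The samples recorded for the scanner files were used. Per the submitters' processing notes RMA was used, with no role given. The design's build was mm9, so probes carry no coordinates here, and those given for promoters are of GRCm38.p6.

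Control spots and those with an outlier flag were dropped, and repeat spots were averaged. Of 39429 probes, 26424 matched 1 symbol by RefSeq or Ensembl identifier (GRCm38.p6 annotation) and 13005 did not. Keeping probes that all arrays of 1 or more groups read well above background left 27402 probes, and the brightest probe stood for its gene. Values for single probes come from a fit of the same design over all kept probes.

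Limma 3.58.1 (lmFit, eBayes; R 4.3.3) was fitted once over 3 groups, with 5 residual degrees of freedom and Benjamini-Hochberg adjustment, and was tested on simulated data. The number of arrays limits precision. Members and lists were chosen with earlier results of these data known. Named beside the members were, by rule, the gene of each list farthest from Control, Ppp3cb, and the 3 genes most alike in course to each of the 2 members farthest from Control. The marker lists' genes were named for their detection. The Gap43, Nrgn, Pcp4l1, Camk2n1, Prkag3 and Ppp3cc values and the places of Col6a1 and Fap were chosen after they were seen. Python 3.11.15 with pandas 2.3.3 and matplotlib 3.10.9 read and plotted the files.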

Additional observations from a re-analysis of the deposited data

How the results depend on the processing

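Over 21 alternatives (other scaling, background correction, filters, probe choice, blocks, array weights and leaving out arrays) the mean of both siRNAs stood above Control by 0.69 to 1.04 for Calml4 and by 0.38 to 0.83 for Pcp4, and below it by -0.28 to -0.18 for Camk2d, with no change of sign. Pcp4 was lowest under normexp followed by quantile normalization and highest without the arrays of slide 1, a setting added after the data were seen. Calm2 lay between -0.01 and 0.15 and Calm3 between 0.01 and 0.10. Limma called 0 genes in the siRNA comparisons under every alternative but 2. Fitted on the groups compared only, siRNA 2 against siRNA 1 gave 1 gene, Afp, lower in siRNA 2, where neither array read it well above background, so that its difference is a bound and no size is given. With 1 array left out, siRNA 2 against Control gave 0 to 1 genes, the 1 being the unnamed XM_885246 without siRNA 2 replicate 2. With array weights the counts stayed at 0. In the main fit, limma's adjusted p for the mean of both siRNAs was 0.332 for both Calml4 and Pcp4. It was 0.0563 for both with array weights, the lowest of the alternatives, and 0.279 to 1 for each over the others. Both genes were chosen with this contrast known, so none of these p-values is offered as support. The slide 1 contrast called 2052 genes with array weights and 798 to 1256 with 1 array left out. It called 798 without siRNA 1 replicate 1 and 878 without siRNA 1 replicate 2. Leaving out one or the other siRNA 2 array gave the same fit of this contrast, with 1 array left in that group, so these are not separate checks. Its small values for single genes turned sign: Pcp4 to 0.0197 under quantile normalization and 0.0191 under median scaling, Camk2d to 0.0024 under quantile normalization, 0.10 under median scaling and 0.0788 with the mean of its probes, Calm3 to 0.0687 and Camkk2 to 0.0759 under median scaling, and Calm2 to -0.0080 with array weights. With 1 array left out these slide values ranged from -0.0372 to 0.11 for Calm2, from -0.0748 to 0.23 for Calml4 and from -0.11 to 0.0162 for Camk2d. The cause was not tested. With the replicate number as a block, limma called 0 genes, and the mean of both siRNAs stood at 0.95 for Calml4 and 0.74 for Pcp4. Under the naming of the scanner files, samples of the same number correlated in their deviations from group means with r from -0.04 to 0.70 over 7 pairs. The numbers were therefore not taken to pair the samples, a choice that rests on this naming. The 2 siRNA 2 arrays deviate from their mean by mirror values, so the pairs are not separate readings. If the deposited matrix names Control 2 and Control 3 rightly, the number follows the slide, and r was 0.044 to 0.698 over the 7 same-slide pairs. Which naming is right is not known. With slide as a block, which covers that naming, the values were 0.95 and 0.73, again with 0 calls.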
